A study of Homo sapiens with 2 samples.

Results

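This section describes 46 human genes for the licensing of replication origins and for the replication fork, listed by their known role, with no measured value in the rule. They were found among 34237 genes with an annotated transcript, and all 46 had a mean TPM (a length-scaled share of all transcripts in a library) of at least 1 over both libraries, as did 11582 genes in all. Polyadenylated RNA was profiled in HepG2, a human liver cancer line, with an inserted cassette that expresses SAMD4B, a relative of fly Smaug that binds RNA, when doxycycline (Dox) is given. The library with Dox came from such cells given 1 µg/ml Dox for 48 h, and the library without Dox came from cells with the same cassette and no Dox. There was 1 library per group, so there is no spread between replicates and no p-value, and each difference below is between these 2 libraries. No cells given Dox without the cassette were analysed here, so effects of Dox and of SAMD4B cannot be told apart, and whether the line is 1 clone is not stated.

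SAMD4B was at 261 TPM with Dox and 47.5 TPM without Dox. Estimated depths, read from the steps between low TPM values of transcripts of 600 nt or more, were 23621566 fragments with Dox and 18357843 without Dox. Hepatocyte markers were abundant in both libraries, led by AFP at 12140 TPM with Dox and 13406 TPM without Dox. Of 8 such markers 7 were lower with Dox, where 47.0% of the 11582 genes were. The 8 markers summed to 22340 TPM with Dox and 24784 TPM without Dox. Of 8 markers of other cell types PTPRC, CD3E, VWF and KRT7 were listed at 0 in both libraries, and COL1A1 and COL1A2 stood below 1 TPM in both. CD68 was at 11.3 TPM with Dox and 10.7 TPM without Dox, and PECAM1 at 4.55 TPM with Dox and 4.57 TPM without Dox. Mitochondrial transcripts held 11.2% of the TPM with Dox and 10.2% without Dox.

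A human cell copies its genome once per division because origins are licensed in G1 and fired in S phase. The origin recognition complex, CDC6 and CDT1 load rings of MCM2 to MCM7 onto DNA, and geminin blocks CDT1 after S phase has begun. CDC45 and the GINS complex then turn each ring into the CMG helicase, behind which polymerases, the sliding clamp PCNA and its loader build the new strands. Many of these genes are transcribed in late G1 and S phase under E2F factors, so their mRNA levels are also read as signs of how many cells are cycling.

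The replication genes were lower with Dox as a group, by modest amounts. Of the 46 genes, 41 were lower with Dox and 5 higher, where 47.0% of all 11582 genes compared were lower and 53.0% higher. The median log2 fold change, on the scale of log2((TPM with Dox + 1)/(TPM without Dox + 1)), was -0.41 over the 46 genes and 0.02 over all genes compared. Their summed level was 1563 TPM with Dox and 1968 TPM without Dox, a ratio of 0.79. On this scale 7 genes were at least 1.5-fold lower (LIG1, RFC5, FEN1, GINS4, CDC6, RFC2 and CLSPN), where 3.90% of all genes compared were, and none was higher by as much, where 5.32% of all genes were. In bulk RNA, fewer cells in S phase and less of each mRNA per cell cannot be told apart.

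Counting error was small beside most of these differences. Fragments were estimated on transcripts of 600 nt or more, and a 95% counting interval on their ratio relative to depth is given for the 38 genes where such transcripts held at least 80% of the TPM in both libraries. These intervals cover counting error only and say nothing of how cultures vary. The interval lay below 1 for 36 of the 38 genes and above 1 for none, where it lay below 1 for 29.3% and above 1 for 24.8% of 9312 genes with an interval. The ratios of ORC5 and RFC1 had intervals that included 1. The genes of this set held a median of 785 fragments without Dox, against 653 over all genes with an interval.

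**Figure D1:**
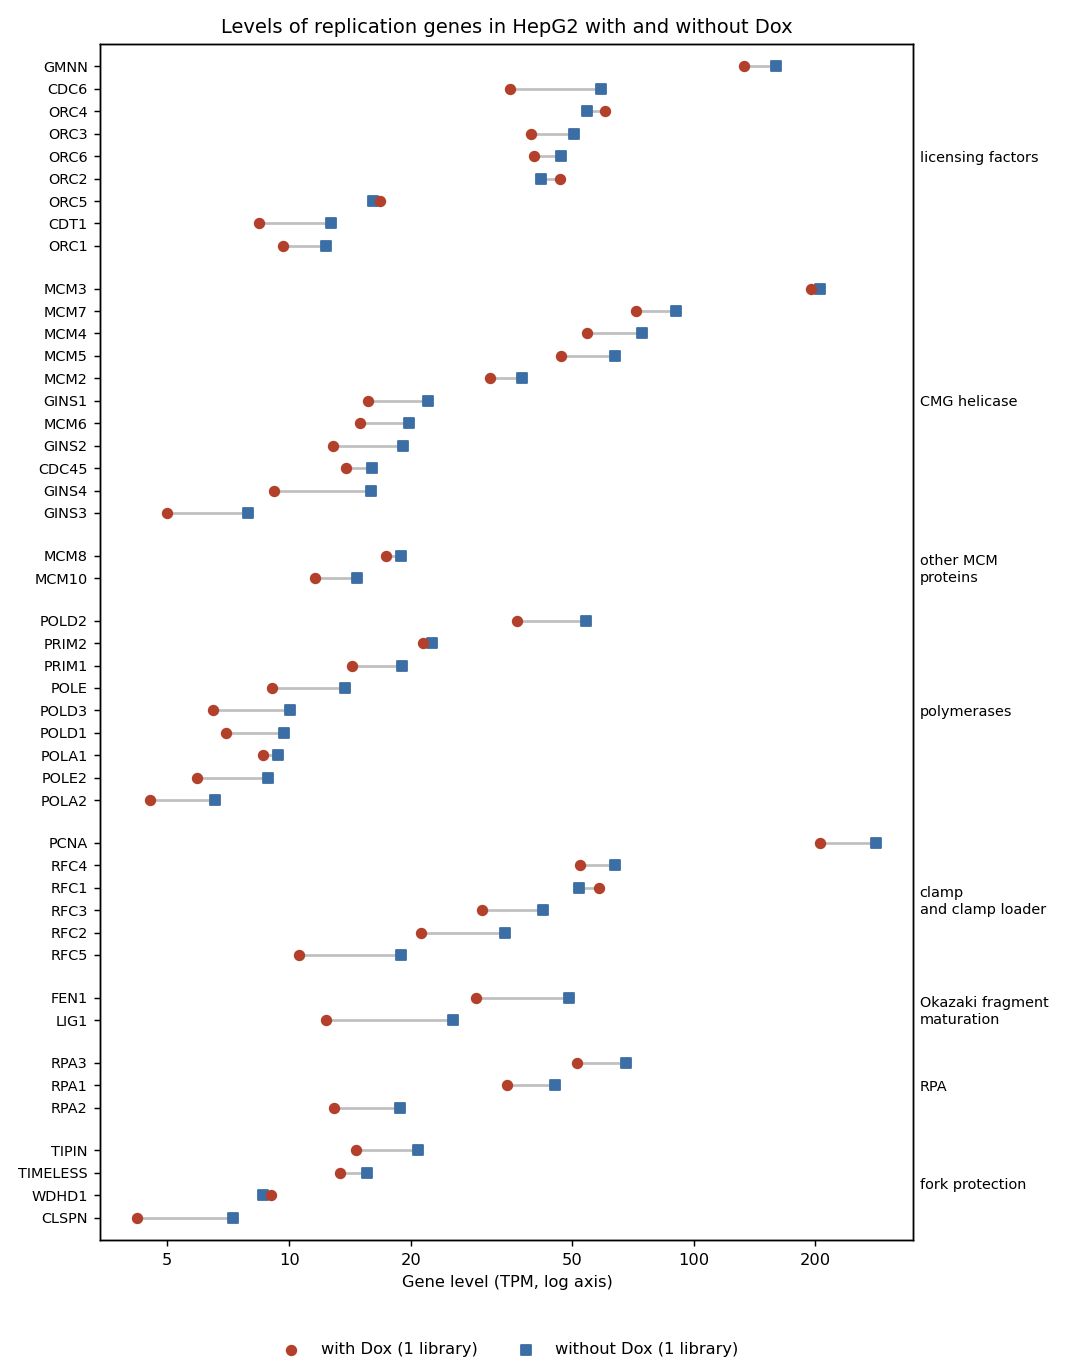
Level of each of the 46 genes in TPM (log axis) in the library with Dox (circles) and the library without Dox (squares), grouped by role. Only ORC2, ORC4, ORC5, RFC1 and WDHD1 have the circle to the right of the square, and PCNA is the most abundant gene in both libraries.

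**Figure D2:**
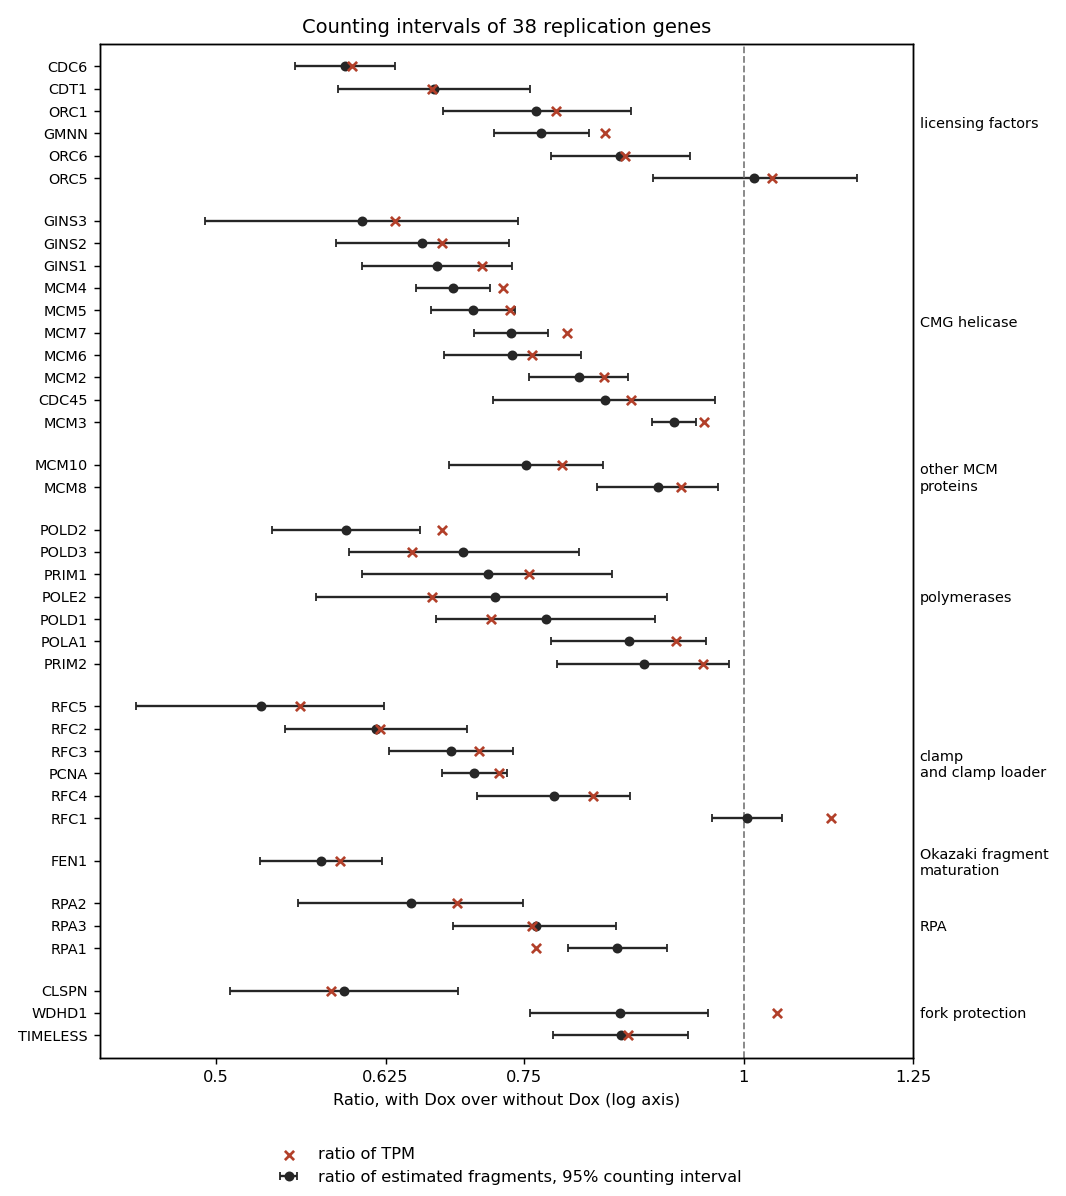
Ratio with Dox over without Dox (log axis) of estimated fragments, as points with 95% counting intervals, and of TPM, as crosses, for the 38 genes with an interval. Intervals of 36 genes lie left of 1, and those of ORC5 and RFC1 include 1.

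Promoter sequence is shown because most of the genes were lower together and E2F sites are a known shared feature of this family. RefSeq windows (GRCh38.p14) of 300 bases, from 250 before to 50 after an annotated gene start, were available for 40 of the 46 genes. They were searched on both strands for the words TTTCCCGC, TTTGGCGC, TTTCGCGC and TTTGCCGC, which are forms of the E2F consensus, counting overlapping matches. At least 1 word was found for 21 of the 40 genes (52.5%), against 6.90% of the 9047 compared genes with a window. Counted by window, a word was in 21 of 50 windows of these genes (42%), against 3.31% of all 35116 windows. The word nearest the start began within 100 bases of it in 19 of the 21 genes. For 12 genes of the helicase, the licensing factors and the fork, the nearest word is given here in capitals with 10 bases on each side, read 5′ to 3′ on the strand of the gene.
CDC6, chr17:40287876-40287903, plus strand: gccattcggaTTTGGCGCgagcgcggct
CDT1, chr16:88803744-88803771, plus strand: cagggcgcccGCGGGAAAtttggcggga
MCM2, chr3:127598403-127598430, plus strand: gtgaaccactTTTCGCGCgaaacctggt
MCM3, chr6:52284729-52284756, minus strand: gttcggaagtTTTCGCGCcggggtggag
MCM6, chr2:135876512-135876539, minus strand: gtcaggtttgGCGCGAAAtctccagctc
MCM7, chr7:100101389-100101416, minus strand: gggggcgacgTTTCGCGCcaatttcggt
GINS1, chr20:25407668-25407695, plus strand: gctttgttcgGCGCCAAAgcgcggagcg
GINS2, chr16:85688968-85688995, minus strand: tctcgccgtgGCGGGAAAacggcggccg
GINS3, chr16:58392456-58392483, plus strand: gtccccgggcGCGGGAAAcgagtttcaa
POLE2, chr14:49688202-49688229, minus strand: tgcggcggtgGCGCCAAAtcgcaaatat
PCNA, chr20:5126664-5126691, minus strand: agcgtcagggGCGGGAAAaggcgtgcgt
CLSPN, chr1:35769966-35769993, minus strand: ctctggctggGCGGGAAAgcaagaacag
Words that end in AAA are matches on the opposite strand. A word in a window is a description of its letters and not a bound site.

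All 21 genes with a word were lower with Dox, with a median log2 fold change of -0.47. Of the 19 genes without a word, 14 were lower and the median was -0.28. The 5 genes that were higher with Dox in summed TPM, ORC2, ORC4, ORC5, RFC1 and WDHD1, all had windows without a word. This split depended on the scale. In estimated fragments ORC2, ORC4 and WDHD1 were lower with Dox (log2 ratios -0.14, -0.07 and -0.23). MCM8 and TIPIN, which have a word, were higher on their most abundant transcript (0.11 and 0.24). Sizes overlapped between genes with and without a word. RFC5, FEN1 and RFC2 were without a word and among the genes lowest with Dox. MCM3, with 2 words, had a log2 fold change of -0.07. A part of E2F factors in these differences was not tested. Over all compared genes with a window the median was -0.02 with a word and 0.02 without. Whole windows are shown for the 3 genes with the smallest log2 fold change (LIG1, RFC5 and FEN1) and for ORC5, the gene nearest 0, with any E2F word in capitals.
LIG1, chr19:48170295-48170594, minus strand: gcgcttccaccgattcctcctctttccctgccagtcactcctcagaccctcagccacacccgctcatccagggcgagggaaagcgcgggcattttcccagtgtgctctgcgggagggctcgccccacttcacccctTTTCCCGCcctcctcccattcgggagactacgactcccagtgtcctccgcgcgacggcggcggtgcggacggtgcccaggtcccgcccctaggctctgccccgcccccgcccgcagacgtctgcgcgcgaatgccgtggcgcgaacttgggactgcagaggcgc
RFC5, chr12:118016453-118016752, plus strand: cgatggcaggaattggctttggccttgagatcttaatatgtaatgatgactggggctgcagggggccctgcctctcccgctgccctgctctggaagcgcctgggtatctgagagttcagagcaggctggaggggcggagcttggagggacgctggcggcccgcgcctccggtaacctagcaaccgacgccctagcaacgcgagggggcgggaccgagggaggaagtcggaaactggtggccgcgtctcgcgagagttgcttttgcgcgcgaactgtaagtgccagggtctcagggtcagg
FEN1, chr11:61792661-61792960, plus strand: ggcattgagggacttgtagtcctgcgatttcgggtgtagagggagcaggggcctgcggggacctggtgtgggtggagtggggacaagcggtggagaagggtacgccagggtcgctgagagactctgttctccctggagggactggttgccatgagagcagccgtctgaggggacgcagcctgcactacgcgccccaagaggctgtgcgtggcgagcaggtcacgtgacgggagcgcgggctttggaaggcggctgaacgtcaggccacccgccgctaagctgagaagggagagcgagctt
ORC5, chr7:104207964-104208263, minus strand: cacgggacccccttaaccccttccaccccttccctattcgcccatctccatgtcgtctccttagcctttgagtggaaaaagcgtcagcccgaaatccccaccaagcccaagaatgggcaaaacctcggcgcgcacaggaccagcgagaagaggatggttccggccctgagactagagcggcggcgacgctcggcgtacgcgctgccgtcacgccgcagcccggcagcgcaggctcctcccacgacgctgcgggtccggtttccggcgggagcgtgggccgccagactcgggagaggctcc
LIG1 alone of these 4 holds a word, TTTCCCGC, beginning 114 bases before the start.

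**Figure D3:**
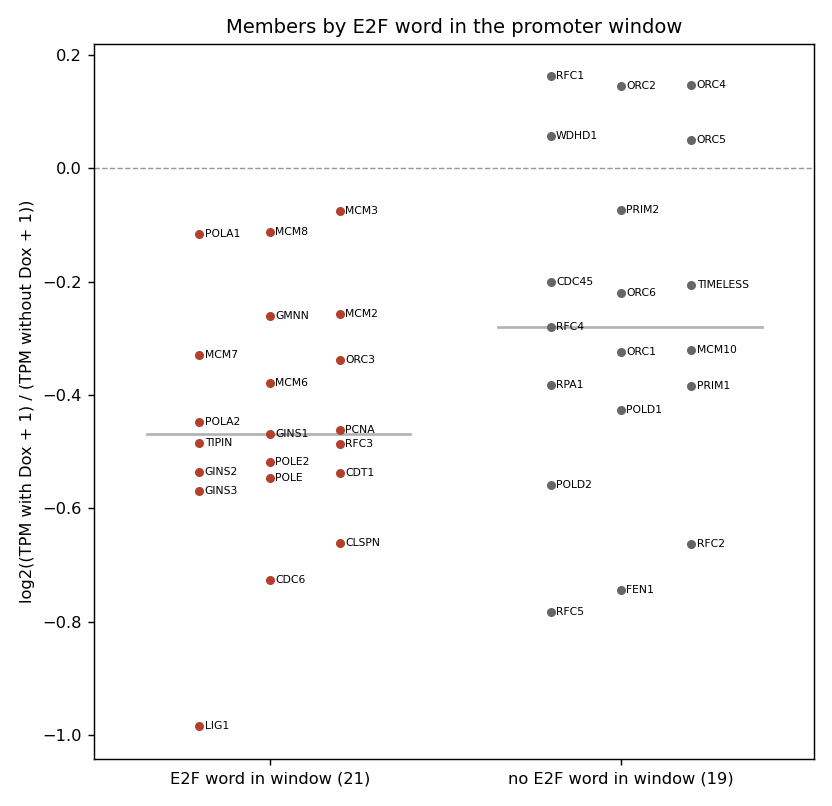
Log2 fold change of TPM plus 1, with Dox over without Dox, of the 40 genes with a promoter window, split by whether the window holds an E2F word. The horizontal bars are medians (-0.47 with a word and -0.28 without), and all 5 genes above 0 stand in the group without a word. The signs of ORC2, ORC4, WDHD1, MCM8 and TIPIN depended on the scale or the transcripts counted.

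Licensing factors split into those lower with Dox and those near their level without Dox. CDC6, the ATPase that joins the origin recognition complex to load the MCM ring, was at 35.2 TPM with Dox and 58.9 TPM without Dox. Its fragment ratio was 0.59 (interval 0.55 to 0.63). CDT1, which brings the MCM ring to the origin, was at 8.42 TPM with Dox and 12.7 TPM without Dox, with a fragment ratio of 0.67 (0.59 to 0.76). CDC6 and CDT1 were thus the lowest of the 9 licensing genes relative to their level without Dox. Geminin (GMNN), the inhibitor of CDT1, was far more abundant than its target, at 133 TPM with Dox and 160 TPM without Dox, and its fragment ratio was 0.77 (0.72 to 0.82). Its main transcript ENST00000356509 differed little (77.4 TPM with Dox and 80.5 TPM without Dox), while ENST00000620958 was listed at 0 with Dox and at 18.3 TPM without Dox, and ENST00000378054 had 9.90 TPM with Dox and was listed at 0 without Dox.

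Of the origin recognition complex, ORC1, ORC3 and ORC6 were lower with Dox in TPM and ORC2, ORC4 and ORC5 were not. ORC1, the subunit whose protein is known to vary through the human cell cycle, was at 9.67 TPM with Dox and 12.4 TPM without Dox. Its fragment ratio was 0.76 (0.67 to 0.86). ORC6 was at 40.2 TPM with Dox and 47.0 TPM without Dox, with a ratio of 0.85 (0.78 to 0.93). ORC5 was at 16.8 TPM with Dox and 16.1 TPM without Dox, with a fragment ratio of 1.01 (0.89 to 1.16). The sum of ORC2 to ORC5 was 163 TPM in each library, with ORC3 lower (log2 fold change -0.34) and the other 3 higher. The median log2 fold change of all 6 ORC genes was -0.08, against -0.32 for the licensing genes other than ORC2 to ORC5. ORC1 and ORC6 are in both sets. ORC2 to ORC5 held all 3 licensing genes that were higher in TPM, so leaving them out by itself lowers the median.

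Short transcripts of 471 to 590 nt held much of the level of ORC3 and ORC4, and no interval is given for them or for ORC2. ORC3 was at 39.7 TPM with Dox and 50.5 TPM without Dox, of which the retained-intron transcript ENST00000468486 had 15.8 TPM with Dox and 22.3 TPM without Dox. ORC4 was at 60.4 TPM with Dox and 54.4 TPM without Dox, but its coding transcript of 6530 nt, ENST00000392857, was at 14.3 TPM with Dox and 15.2 TPM without Dox. ORC2 was at 46.6 TPM with Dox and 42.0 TPM without Dox, with its main coding transcript ENST00000234296 at 23.7 TPM with Dox and 25.8 TPM without Dox. The direction for ORC2 and ORC4 therefore depended on the transcripts counted. On those of 600 nt or more, log2 fragment ratios were -0.14 for ORC2 and -0.07 for ORC4. Exons of ORC4 also overlap ACVR2A by 430 bases on the opposite strand, and whether strand was used in quantification is not given in the sources used here.

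All 11 subunits of the CMG helicase were lower with Dox. Their median log2 fold change was -0.43, and the interval lay below 1 for each of the 10 with an estimate. The 6 MCM subunits kept one order of level in both libraries (MCM3, MCM7, MCM4, MCM5, MCM2, MCM6), although each ring holds 1 copy of each. MCM3 was at 195 TPM with Dox and 205 TPM without Dox, and its fragment ratio of 0.91 (0.89 to 0.94) was the nearest to 1 in the complex. MCM6, the least abundant MCM subunit, was at 14.9 TPM with Dox and 19.7 TPM without Dox. MCM4 had the lowest fragment ratio of the ring, 0.68 (0.65 to 0.72), at 54.4 TPM with Dox and 74.6 TPM without Dox. MCM5 was at 47.0 TPM with Dox and 63.9 TPM without Dox, MCM7 at 71.9 TPM with Dox and 90.6 TPM without Dox, and MCM2 at 31.4 TPM with Dox and 37.7 TPM without Dox. Their fragment ratios were 0.70 for MCM5, 0.74 for MCM7 and 0.81 for MCM2. The interval of MCM3 did not overlap those of the other 5 MCM genes.

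The GINS genes stood at the lower end of the helicase genes, with overlap. The summed level of GINS1 to GINS4 was 42.6 TPM with Dox and 64.9 TPM without Dox (ratio 0.66), against a ratio of 0.84 for the sum of MCM2 to MCM7 and 0.77 for that sum without the abundant MCM3. GINS1 was at 15.6 TPM with Dox and 22.0 TPM without Dox, with a fragment ratio of 0.67 (0.61 to 0.74). GINS3 was at 4.997 TPM with Dox and 7.90 TPM without Dox, with a fragment ratio of 0.61 (0.49 to 0.74). GINS2 was at 12.9 TPM with Dox and 19.1 TPM without Dox, all of it on 1 transcript, with a ratio of 0.66 (0.59 to 0.73). GINS4 had the lowest TPM of the group relative to its level without Dox, at 9.16 TPM with Dox and 15.9 TPM without Dox (log2 fold change -0.74). A retained-intron transcript of 494 nt, listed at 0 with Dox and at 4.13 TPM without Dox, made up much of that, and without it the log2 fold change was -0.33. CDC45, the remaining CMG subunit, was at 13.8 TPM with Dox and 16.04 TPM without Dox, with a ratio of 0.83 (0.72 to 0.96).

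Of the other MCM proteins, MCM10, which helps the assembled helicase to start, was at 11.6 TPM with Dox and 14.7 TPM without Dox, with a fragment ratio of 0.75 (0.68 to 0.83). MCM8, which works with MCM9 in recombination, was at 17.4 TPM with Dox and 18.9 TPM without Dox. Its ratio was 0.89 (0.82 to 0.97), and its transcript ENST00000265187 was listed at 0 with Dox and at 3.78 TPM without Dox. Without that transcript the log2 fold change of MCM8 was 0.19.

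All 9 genes for polymerase and primase subunits were lower with Dox, with a median log2 fold change of -0.45. None was 1.5-fold lower once 1 TPM was added to both levels, although the plain TPM ratios of POLD3 (0.65), POLE (0.66) and POLE2 (0.66) passed that size. For DNA polymerase delta, which copies the lagging strand, POLD2 was at 36.5 TPM with Dox and 54.3 TPM without Dox, with a fragment ratio of 0.59 (0.54 to 0.65). The catalytic subunit POLD1 was at 6.98 TPM with Dox and 9.72 TPM without Dox, with a ratio of 0.77 (0.67 to 0.89). POLD3 was at 6.49 TPM with Dox and 10.0 TPM without Dox, and its ratio was 0.69 (0.60 to 0.81). The accessory subunit POLD2 was several times as abundant as the catalytic subunit in both libraries. Its difference lay mostly in ENST00000610533, at 16.2 TPM with Dox and 31.1 TPM without Dox.

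For DNA polymerase epsilon, which copies the leading strand, POLE was at 9.07 TPM with Dox and 13.7 TPM without Dox. No interval is given for POLE, since transcripts of 600 nt or more held 72.9% of its TPM without Dox, and the full-length ENST00000320574 was at 5.68 TPM with Dox and 7.13 TPM without Dox. POLE2 was at 5.91 TPM with Dox and 8.89 TPM without Dox, with a ratio of 0.72 (0.57 to 0.90). Non-coding transcripts, listed at 0 with Dox, held 23.8% of its TPM without Dox. Its coding transcripts alone summed to 6.77 TPM without Dox, for a log2 fold change of -0.17 against -0.52 over all its transcripts. The polymerase alpha and primase complex lays down primers. In TPM, its subunits POLA1 and PRIM2 stood nearer to their level without Dox than PRIM1 and POLA2. POLA1 was at 8.60 TPM with Dox and 9.40 TPM without Dox (ratio 0.86, 0.78 to 0.95). PRIM2 was at 21.4 TPM with Dox and 22.6 TPM without Dox (0.88, 0.78 to 0.98), while the primase catalytic subunit PRIM1 was at 14.3 TPM with Dox and 19.0 TPM without Dox (0.72, 0.61 to 0.84). POLA2, at 4.53 TPM with Dox and 6.54 TPM without Dox, was the least abundant of the polymerase genes without Dox. Its exons share 2012 bases with an unnamed gene on the same strand. No interval is given for POLA2, since transcripts of 600 nt or more held 54.3% of its TPM without Dox. Its transcript ENST00000525924, listed at 0 with Dox and at 1.43 TPM without Dox, made up much of its difference.

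The clamp and the small loader subunits were lower with Dox, and the large loader subunit was not. PCNA, the ring that holds polymerases on DNA, was at 205 TPM with Dox and 283 TPM without Dox, with a fragment ratio of 0.70 (0.67 to 0.73). RFC1, the large subunit found only in the main loader, was at 58.3 TPM with Dox and 52.0 TPM without Dox, and its fragment ratio was 1.00 (0.96 to 1.05). The small subunits RFC2 to RFC5, which also serve other loaders, summed to 114 TPM with Dox and 159 TPM without Dox (ratio 0.72). RFC5 was at 10.6 TPM with Dox and 18.9 TPM without Dox, with a ratio of 0.53 (0.45 to 0.62). RFC2 was at 21.2 TPM with Dox and 34.2 TPM without Dox, with a ratio of 0.62 (0.55 to 0.70). RFC3 had 30.0 TPM with Dox and 42.5 TPM without Dox (0.68, 0.63 to 0.74), and RFC4 had 52.4 TPM with Dox and 63.8 TPM without Dox (0.78, 0.71 to 0.86). The interval of RFC1 overlapped none of those of the 4 small subunits. Exons of RFC5 share 186 bases with WSB2 on the opposite strand, which was at 34.2 TPM with Dox and 21.4 TPM without Dox.

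The genes that finish Okazaki fragments, the short pieces of the lagging strand, had the lowest median of the role groups (-0.86). LIG1, the ligase that seals them, was at 12.4 TPM with Dox and 25.4 TPM without Dox, a log2 fold change of -0.99. Its main transcript ENST00000263274 was at 7.35 TPM with Dox and 14.0 TPM without Dox. A coding transcript of 580 nt, ENST00000596549, was listed at 0 with Dox and at 6.88 TPM without Dox. LIG1 has no interval because of it, but its log2 fragment ratio over longer transcripts was -0.92. FEN1, the nuclease that removes the primer flap, was at 28.998 TPM with Dox and 49.3 TPM without Dox, almost all on 1 transcript, with a ratio of 0.57 (0.53 to 0.62).

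All 3 subunits of RPA, which coats the unwound strand, were lower with Dox. RPA1 was at 34.5 TPM with Dox and 45.3 TPM without Dox (ratio 0.85, 0.79 to 0.90). RPA2 was at 12.9 TPM with Dox and 18.8 TPM without Dox (0.65, 0.56 to 0.75), and RPA3 was at 51.4 TPM with Dox and 67.8 TPM without Dox (0.76, 0.68 to 0.85). RPA2 was the least abundant of the 3 in both libraries and had the lowest ratio.

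The fork protection genes differed among themselves. Claspin (CLSPN), the adaptor through which ATR activates CHEK1, was at 4.21 TPM with Dox and 7.25 TPM without Dox, with a fragment ratio of 0.59 (0.51 to 0.69). TIMELESS was at 13.4 TPM with Dox and 15.6 TPM without Dox, with a ratio of 0.85 (0.78 to 0.93). Its partner TIPIN was at 14.6 TPM with Dox and 20.8 TPM without Dox, but a transcript of 495 nt was listed at 0 with Dox and at 5.56 TPM without Dox. Without that transcript the log2 fold change of TIPIN was -0.06. WDHD1, which ties polymerase alpha to the helicase, was at 9.01 TPM with Dox and 8.63 TPM without Dox, while its fragment ratio was 0.85 (0.76 to 0.95). Its direction thus changed with the scale, and its longest coding transcript ENST00000360586 was at 3.24 TPM with Dox and 4.08 TPM without Dox.

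**Figure D4:**
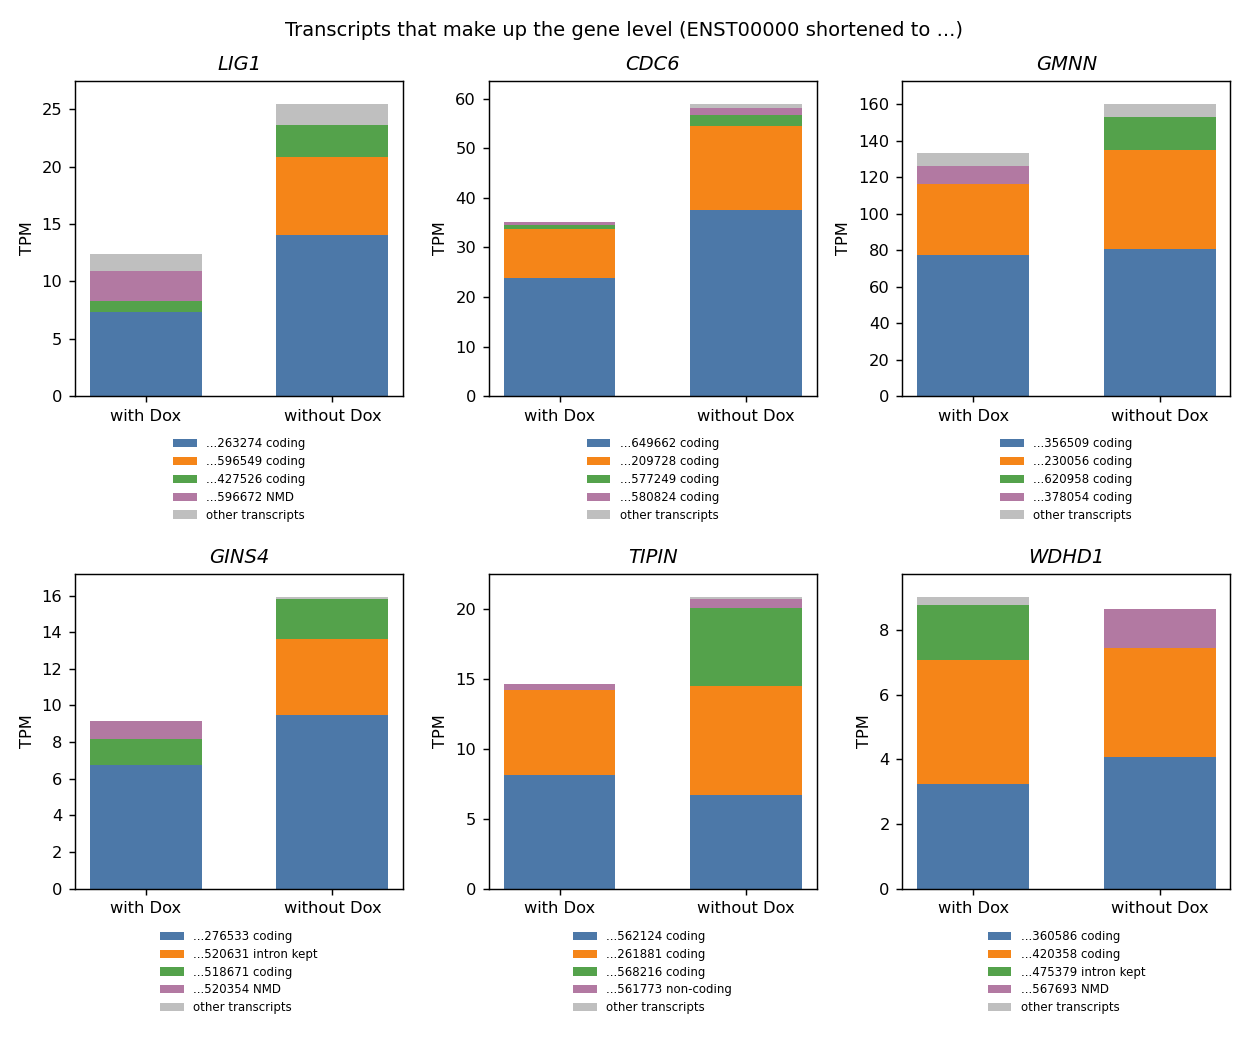
TPM of the transcripts of LIG1, CDC6, GMNN, GINS4, TIPIN and WDHD1, stacked to the gene level, with Dox on the left and without Dox on the right of each panel. Each CDC6 transcript drawn is smaller with Dox, whereas in GINS4 and TIPIN a transcript present only without Dox (4.13 and 5.56 TPM) makes up much of the difference.

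Medians of the role groups were all below 0, with the Okazaki pair the lowest. Medians of the log2 fold change were -0.22 for the other MCM proteins, -0.26 for licensing factors, -0.43 for the CMG helicase, -0.45 for polymerases, -0.47 for the clamp and its loader, -0.39 for RPA and -0.35 for fork protection. Without ORC2 to ORC5, which held all 3 licensing genes that were higher in TPM, the licensing median was -0.32. With 1 library per group no test of a difference between these groups was possible.

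Other genes of replication, from lists chosen for their role, were lower less uniformly. Of 55 such genes, 33 were lower (60%) and 22 higher, with a median log2 fold change of -0.09. Of all genes compared 47.0% were lower, a share that also applies beside the single lists below. The interval lay below 1 for 22 of 43 genes with an interval and above 1 for 6. Over all genes with an interval these shares were 29.3% and 24.8%. Genes that fire origins were the most like the 46, with 10 of 11 lower and a median of -0.32. TICRR, which helps CDC45 onto the helicase, had a fragment ratio of 0.62 (0.54 to 0.71). CCNE1, the cyclin partner of CDK2, had a ratio of 0.68 (0.59 to 0.78). DONSON, a CMG assembly factor, had the smallest log2 fold change of this list (-0.52) and a ratio of 0.83 (0.76 to 0.91). It was at 34.4 TPM with Dox and 49.7 TPM without Dox. A retained-intron transcript, listed at 0 with Dox, held 15.2 TPM of its level without Dox, so its fold change in TPM rests largely on that transcript.

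Of the 8 genes measured for chromatin assembly and methylation behind the fork, all were lower. UHRF1, which recognises newly copied hemimethylated DNA, was at 0.90 TPM with Dox and 5.38 TPM without Dox, a fragment ratio of 0.14 (0.11 to 0.20). DNMT1, the maintenance methyltransferase that UHRF1 recruits, was at 9.23 TPM with Dox and 19.1 TPM without Dox. Both had lower ratios than any of the 46 genes in estimated fragments, in which the log2 fold changes were -2.79 for UHRF1 and -1.04 for DNMT1. No interval is given for DNMT1, since transcripts of 600 nt or more held 75.8% of its TPM without Dox. Its rank depended on the scale, as its log2 fold change in TPM was -0.97 and that of LIG1 was -0.99. The histone chaperone genes were closer to their level without Dox, with NASP at a ratio of 0.79 (0.76 to 0.82) and CHAF1B at 0.73 (0.64 to 0.84).

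Of the 6 checkpoint genes, 4 were lower in TPM. One of them, the kinase gene CHEK1, was at 39.4 TPM with Dox and 49.9 TPM without Dox. Its transcript of 562 nt was listed at 0 with Dox and at 11.9 TPM without Dox. No interval is given for CHEK1, since transcripts of 600 nt or more held 73.4% of its TPM without Dox. Over those transcripts its fragment ratio was 1.04. CDC25A, the phosphatase that activates CDK2, was at 10.7 TPM with Dox and 16.7 TPM without Dox (ratio 0.60, 0.54 to 0.67). ATRIP, the partner of ATR, was at 3.37 TPM with Dox and 7.90 TPM without Dox, of which a transcript listed at 0 with Dox had 3.47 TPM without Dox. ATR itself had a ratio of 1.251 (1.13 to 1.39). The other lists were mixed or near 0. Medians were 0.12 for the remaining subunits and partners (LRWD1 0.38), -0.10 for alternative clamps and loaders and -0.05 for primer removal. They were 0.09 for topoisomerases (TOP1 0.26) and 0.05 for translesion polymerases (PRIMPOL 0.27). The intervals of LRWD1 (0.98 to 1.47) and PRIMPOL (0.85 to 1.26) included 1. Among translesion genes only POLK had an interval above 1 (1.14 to 1.44). CHTF18 and RNASEH2C were at least 1.5-fold higher in TPM (log2 fold changes 0.96 and 0.72), but not in estimated fragments (-0.10 and -0.21), where several of their short or intron-retaining transcripts were listed at 0 without Dox.

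**Figure D5:**
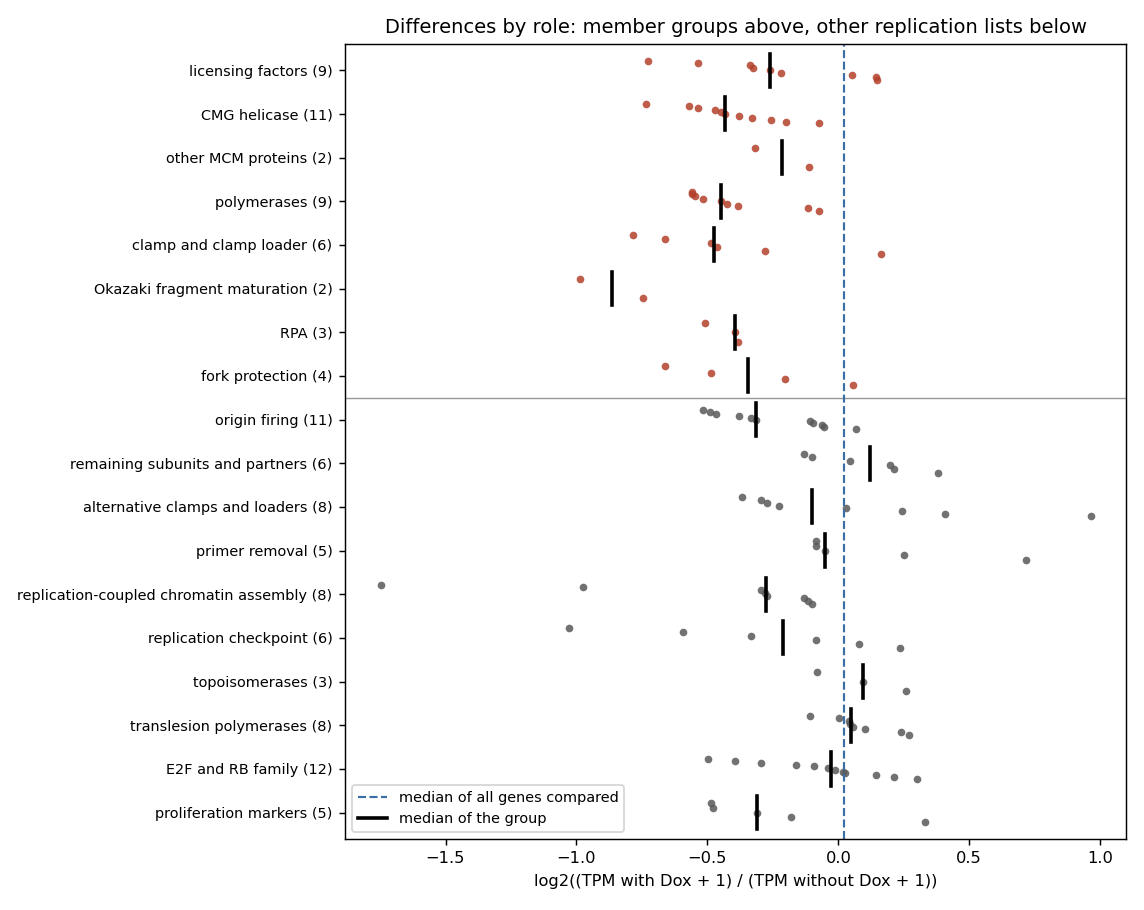
Log2 fold change of TPM plus 1, with Dox over without Dox, of each gene by role, with the 46 genes above the line and the other lists below it. Black bars are group medians, and the dashed line is the median of all genes compared (0.02). Every bar of the 46 genes lies left of the dashed line, and the lowest single point is UHRF1 at -1.75.

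Levels of E2F and RB family genes differed by member. E2F1, itself an E2F target, was at 5.64 TPM with Dox and 8.37 TPM without Dox (ratio 0.66, 0.55 to 0.78), and E2F8 had a ratio of 0.69 (0.55 to 0.87). E2F7 had the lowest fragment ratio of the list, 0.52 (0.42 to 0.64). In TPM it hardly differed, at 2.62 TPM with Dox and 2.65 TPM without Dox. E2F3 and E2F4 had ratios of 1.00 and 1.05 with intervals that included 1, while RB1 had a ratio of 1.16 (1.09 to 1.22). The median log2 fold change of the 12 genes measured was -0.03. Of 5 proliferation markers, 4 were lower. MKI67 was at 21.8 TPM with Dox and 30.8 TPM without Dox, and CCNA2 at 44.1 TPM with Dox and 62.1 TPM without Dox. CDK1 was at 63.2 TPM with Dox and 78.5 TPM without Dox, and CCNB1 at 125 TPM with Dox and 142 TPM without Dox. CCND1, the cyclin of G1, was at 86.4 TPM with Dox and 68.5 TPM without Dox. The share of cycling cells was not measured, and its part in the lower level of the replication genes was not tested.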

How the data were processed

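The authors deposited TPM values for 184844 Ensembl transcripts in 2 libraries. The tools were Salmon and Trimmomatic and the build GRCh38.p13, per the submitters' processing notes. Tool versions and strand settings were not given in the sources used here. Salmon shares fragments among similar transcripts, and TPM depends on transcript length, so short transcripts weigh heavily. Transcripts were matched to GENCODE release 29 by identifier (161798 matched, 93.3% of the TPM in each library) and summed per gene. Reads on unmatched transcripts are missed. The fold change used a pseudocount of 1 TPM, which understates differences of low genes, and the comparison was limited to genes averaging 1 TPM or more.

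Fragments were estimated as TPM times length less an offset (300 nt with Dox, 290 nt without Dox), divided by a fitted step. Within 0.1 of a whole number lay 81.0% (540 of 667) and 77.4% (518 of 669) of values under 5.5 fragments, where width alone gives 20%. Step and offset were fitted to these same values. Intervals are exact (Clopper-Pearson, SciPy 1.17.1). The procedure was tested on simulated counts drawn separately for each transcript, which cannot test how Salmon shares fragments among transcripts.

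The 46 genes and the other lists were drawn up by role, with earlier results of these data known, and tests likewise. Every one of the 46 genes is accounted for. Full values go to the members of each role with the largest and smallest fold change and to those past 1.5-fold, and from other lists to genes past 1.5-fold or with the largest change. Any other gene named was chosen after its values were seen. ASF1B, TOP3A and E2F2 were not analysed here. Alternatives were other pseudocounts, filters, transcript sets, scalings and estimated fragments.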

Additional observations from a re-analysis of the deposited data

How the results depend on the processing

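No paired analysis was possible because each group has 1 library. Over 9 alternatives, 8 of them planned, the median log2 fold change of the 46 genes ranged from -0.42 to -0.33, and 41 to 44 genes were lower with Dox. A filter at a mean TPM of 5 and the lack of any filter kept all 46 genes, so these settings could not change their values. The number at least 1.5-fold lower was 4 with a pseudocount of 5 TPM and 11 in estimated fragments, against 7. The remaining alternative, added after the data were seen, left out transcripts listed at 0 in 1 library and at 1 TPM or more in the other (24 transcripts of these genes). The fork protection median was then -0.13, with TIPIN at -0.06. TIPIN changed sign on its most abundant transcript (0.24), and MCM8 on its own (0.11) and without such transcripts (0.19). WDHD1 was at -0.0211 on coding transcripts, -0.26 on its most abundant transcript, -0.23 in fragments and -0.0211 without such transcripts. Polymerase medians ranged from -0.52 to -0.28. Scaling to nuclear protein-coding genes moved the median of all genes from 0.02 to 0.04. A single fragment on a 2000 nt transcript equals a TPM of 0.0316 with Dox and 0.0395 without Dox. Depth gives no measure of how cultures vary.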

Other observations

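Transcript classes of the 46 genes kept similar shares. Coding transcripts held 91.8% of their summed TPM with Dox and 92.5% without Dox, retained-intron transcripts 5.41% with Dox and 5.52% without Dox, and transcripts annotated for nonsense-mediated decay 0.62% in each library. Other processed transcripts held 2.14% with Dox and 1.38% without Dox. The most abundant transcript was coding in 45 of the 46 genes, ORC3 being the exception.

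Other promoter words were counted in the windows of the same 40 genes. The CHR word TTTGAA, known from genes of late cell-cycle expression, was in none of the 40 genes, against 13.9% of compared genes with a window. The CCAAT word was in 62.5% of the 40 genes and 43.8% of compared genes, and the GC box GGGCGG in 77.5% and 77.4%. Genes with and without CCAAT had median log2 fold changes of -0.34 and -0.45. Shares of such short words depend on base composition, and a GC box can overlap an E2F word.

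Exons of 11 of the 46 genes overlap another expressed gene, in 14 pairs. Among them FEN1 shares 166 bases with TMEM258 on the opposite strand, which was at 156 TPM with Dox and 158 TPM without Dox. All 14 annotated pseudogenes named after these genes were listed at 0 in both libraries.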
